A study of Mus musculus with 44 samples.

Results

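The non-inflamed small intestine of vehicle-treated mice was set against the non-inflamed colon, using 10 of the 44 libraries of a study of MK2 kinase inhibition in mouse intestinal inflammation. The small intestine libraries (TNF_NI_V, replicates 1 to 5, all of batch 2) come from Tnf +/+ mice, the non-inflamed littermates of TNFΔARE animals. TNFΔARE mice carry a deletion of an AU-rich element in the Tnf gene, and their colony was bred as heterozygotes. The colon libraries (TCT_NI_V, replicates 1, 2, 4, 6 and 7) come from Rag1 null mice that had received 200000 bulk T cells. These mice make no mature T or B cells of their own and served as the uninflamed partners of a T cell transfer colitis. Replicates 1, 2 and 4 belong to batch 1, and replicates 6 and 7 to batch 4. All 10 libraries are labelled C57BL/6 and vehicle. Mice received vehicle, a second dose 16 h later, and were harvested 90 min after it. An age of 16 weeks at entry is given in a protocol shared by all samples, and it may refer to the TNFΔARE colony alone. All members were taken from the labels, and the 2 deposited count tables were joined on the gene identifier. The protocol names ileum and distal colons, without saying which model gave which tissue, and the tissue label reads intestine for every library. The regional names used here rest on the genes described below. Intestinal region, Rag1 genotype, T cell transfer and batch change together between the groups, so their shares in any difference cannot be told apart. Whether each library is a separate mouse is not stated, and the p-values measure the spread between these libraries.

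The intestine is patterned along its length. In the small intestine, enterocytes carry brush border hydrolases and nutrient transporters, and Paneth cells at the crypt base secrete alpha-defensins and lysozyme. The terminal ileum adds a special task, the recovery of bile acids and of vitamin B12 bound to intrinsic factor. The colon lacks Paneth cells and villi, reabsorbs salt and water through sodium channels, aquaporins and ion exchangers, and burns short-chain fatty acids. Positional identity is kept by transcription factors, with GATA4 marking the proximal gut and posterior HOX genes the hindgut. The wall of both regions also holds lymphocytes, muscle, nerves and connective tissue, and the small intestine carries Peyer's patches rich in B cells.

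The promoters of 6 genes that carry the regional contrast are shown here as examples. The groups do not overlap at these genes, as at 2878 genes in all. The 6 were picked by hand together with the motif to mark, so only the shares given below describe the motifs across genes. They are the 250 bases upstream of the RefSeq start on GRCm38.p6, each written from 5′ to 3′ on the strand of its gene. Capitals mark TTTATG, a core bound by caudal-type (Cdx) factors, or its reverse complement in Sis, Slc10a2 and Fabp6. In Defa20 and Defa21 capitals mark the reverse complement of CTTTGA, a Tcf/Lef core. Only the motif named for a gene is marked, and the Slc10a2 promoter also holds the reverse complement of CTTTGA, left in small letters. The promoter of Aqp8, a colonic gene, holds no TTTATG in this window and has no capitals.
Sis (chr3:72967864-72968113, minus strand): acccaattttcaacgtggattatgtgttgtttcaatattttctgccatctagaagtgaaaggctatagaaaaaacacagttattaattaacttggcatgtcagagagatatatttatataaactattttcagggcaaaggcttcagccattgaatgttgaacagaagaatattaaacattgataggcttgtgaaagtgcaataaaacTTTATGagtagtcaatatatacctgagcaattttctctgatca
Slc10a2 (chr8:5105288-5105537, minus strand): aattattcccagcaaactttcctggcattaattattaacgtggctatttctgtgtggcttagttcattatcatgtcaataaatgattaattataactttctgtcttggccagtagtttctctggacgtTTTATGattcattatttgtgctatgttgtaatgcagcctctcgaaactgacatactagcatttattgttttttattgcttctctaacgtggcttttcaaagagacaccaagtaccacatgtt
Fabp6 (chr11:43601563-43601812, minus strand): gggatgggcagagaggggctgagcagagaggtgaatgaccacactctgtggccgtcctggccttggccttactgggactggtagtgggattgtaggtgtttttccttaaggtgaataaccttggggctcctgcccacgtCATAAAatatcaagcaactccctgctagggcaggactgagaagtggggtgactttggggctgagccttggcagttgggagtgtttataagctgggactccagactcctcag
Defa20 (chr8:21509008-21509257, plus strand): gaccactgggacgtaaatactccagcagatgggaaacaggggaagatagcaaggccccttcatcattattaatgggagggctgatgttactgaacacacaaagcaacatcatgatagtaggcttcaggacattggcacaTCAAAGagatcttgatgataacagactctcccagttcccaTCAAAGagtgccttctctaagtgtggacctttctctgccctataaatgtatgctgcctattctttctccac
Defa21 (chr8:21025295-21025544, plus strand): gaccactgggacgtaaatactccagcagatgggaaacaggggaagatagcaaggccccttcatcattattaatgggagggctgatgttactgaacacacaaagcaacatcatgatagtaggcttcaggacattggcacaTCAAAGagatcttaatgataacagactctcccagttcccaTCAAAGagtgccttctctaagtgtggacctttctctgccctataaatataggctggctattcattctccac
Aqp8 (chr7:123462044-123462293, plus strand): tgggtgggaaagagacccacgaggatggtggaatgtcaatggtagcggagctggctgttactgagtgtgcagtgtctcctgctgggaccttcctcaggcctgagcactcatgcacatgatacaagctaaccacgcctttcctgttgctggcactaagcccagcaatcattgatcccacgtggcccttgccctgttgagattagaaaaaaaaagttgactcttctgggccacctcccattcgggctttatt
Defa20 and Defa21 share 245 of these 250 bases, or 98%, and the promoters of Defa21 and Defa22 are the same in all 250. TTTATG on either strand occurred in 10.4% of the promoters of genes at least 4-fold higher in the small intestine (49 of 469 with a promoter in the table). It occurred in 9.29% of those at least 4-fold lower (29 of 312), in 6% of all genes tested (640 of 10664) and in 11.1% of all 27025 promoters. CTTTGA on either strand occurred in 20.3% of the higher genes, 11.2% of the lower ones, 11.1% of all genes tested and 14% of all promoters. AGATAA, a core bound by Gata factors, occurred in 12.2% of the higher genes, 6.09% of the lower ones, 6.05% of all genes tested and 10.3% of all promoters. Some promoters are copies of each other, so they are not independent: among 16 alpha-defensin promoters 13 of 120 pairs shared at least 95% of their bases, and the other pairs 18.4 to 64%. A match is a description of letters only.

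Library totals ran from 9633104 to 13113931 counts in the small intestine and from 17133558 to 19267733 counts in the colon. Log-scale correlations between libraries were 0.906 to 0.976 within the small intestine, 0.919 to 0.976 within the colon, and 0.755 to 0.84 between the groups. Of 14136 genes tested with edgeR's quasi-likelihood test, 3539 passed a Benjamini-Hochberg adjusted p of 0.05, which is 25%. Of these, 1941 (13.7%) were higher in the small intestine and 1598 (11.3%) were lower. Counts of list members given below are to be read beside these shares. With no scaling beyond the library total the split became 1455 higher and 2283 lower, and the median log2 fold change of all genes was -0.25, against -0.05 with TMM scaling. A second, stricter count took genes that also differed at least 4-fold, and 1181 genes (8.35%) met it, 750 higher (5.31%) and 431 lower (3.05%). The values of the 5 and 5 libraries did not overlap for 2878 genes (20.4%). Throughout, levels are CPM, counts relative to the TMM-scaled library total, and fold changes are log2 values of small intestine over colon. Some libraries hold transcripts of other tissues, and these are given before the results that they touch. Small intestine replicate 2 had the highest level of adipocyte genes and, within the small intestine, the lowest of B cell genes. Colon replicate 6 held prostate transcripts, colon replicate 7 held squamous epithelial transcripts and the most T cell transcripts of the colon libraries, and Y-linked transcripts were high in small intestine replicates 3, 4 and 5 and colon replicate 6.

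Genes that define the ileum were high in all 5 libraries called small intestine and far lower in the libraries called colon. Fabp6, the ileal bile acid binding protein (chromosome 11, 43596049 to 43601540), had 4212, 4767, 4314, 7018 and 4882 CPM in the small intestine libraries, against 3.94, 22.2, 47.6, 2.22 and 110.2 CPM in the colon libraries (log2 fold change 7.04, SE 1.04, adjusted p = 0.000349). Slc10a2, the apical sodium-dependent bile acid transporter (chromosome 8, 5083219 to 5105351), had 979, 1198, 1006, 1191 and 801 CPM in the small intestine and 16.4, 10.7, 15, 4.91 and 12.4 CPM in the colon (log2 fold change 6.42, SE 0.35, adjusted p = 1.75e-07). For both genes the lowest small intestine library lay far above the highest colon library, and without colon replicate 7 the log2 fold change of Fabp6 was 8.02. Colonic genes showed the reverse. Car1, carbonic anhydrase 1 of colonocytes, had 1.22, 2.78, 0.42, 2.1 and 2.21 CPM in the small intestine, against 2320, 632, 1458, 1452 and 499.5 CPM in the colon (log2 fold change -9.55, SE 0.65, adjusted p = 7.89e-07). Aqp8, an aquaporin of colonic surface cells, gave 1 count in 1 small intestine library and none in the other 4, against 735, 419, 479, 549.8 and 327 CPM in the colon. The pooled level in the colon over that in the small intestine gave a ratio of 24370, 95% counting interval 4373 to 962500 (adjusted p = 8.09e-09). Fgf15, the bile acid induced hormone that ileal cells send to the liver, was 19.4 to 66.1 CPM in the small intestine and had no count in any colon library, a level at least 1092-fold higher in the small intestine when the colon is set at 3 counts over the group.

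**Figure D1:**
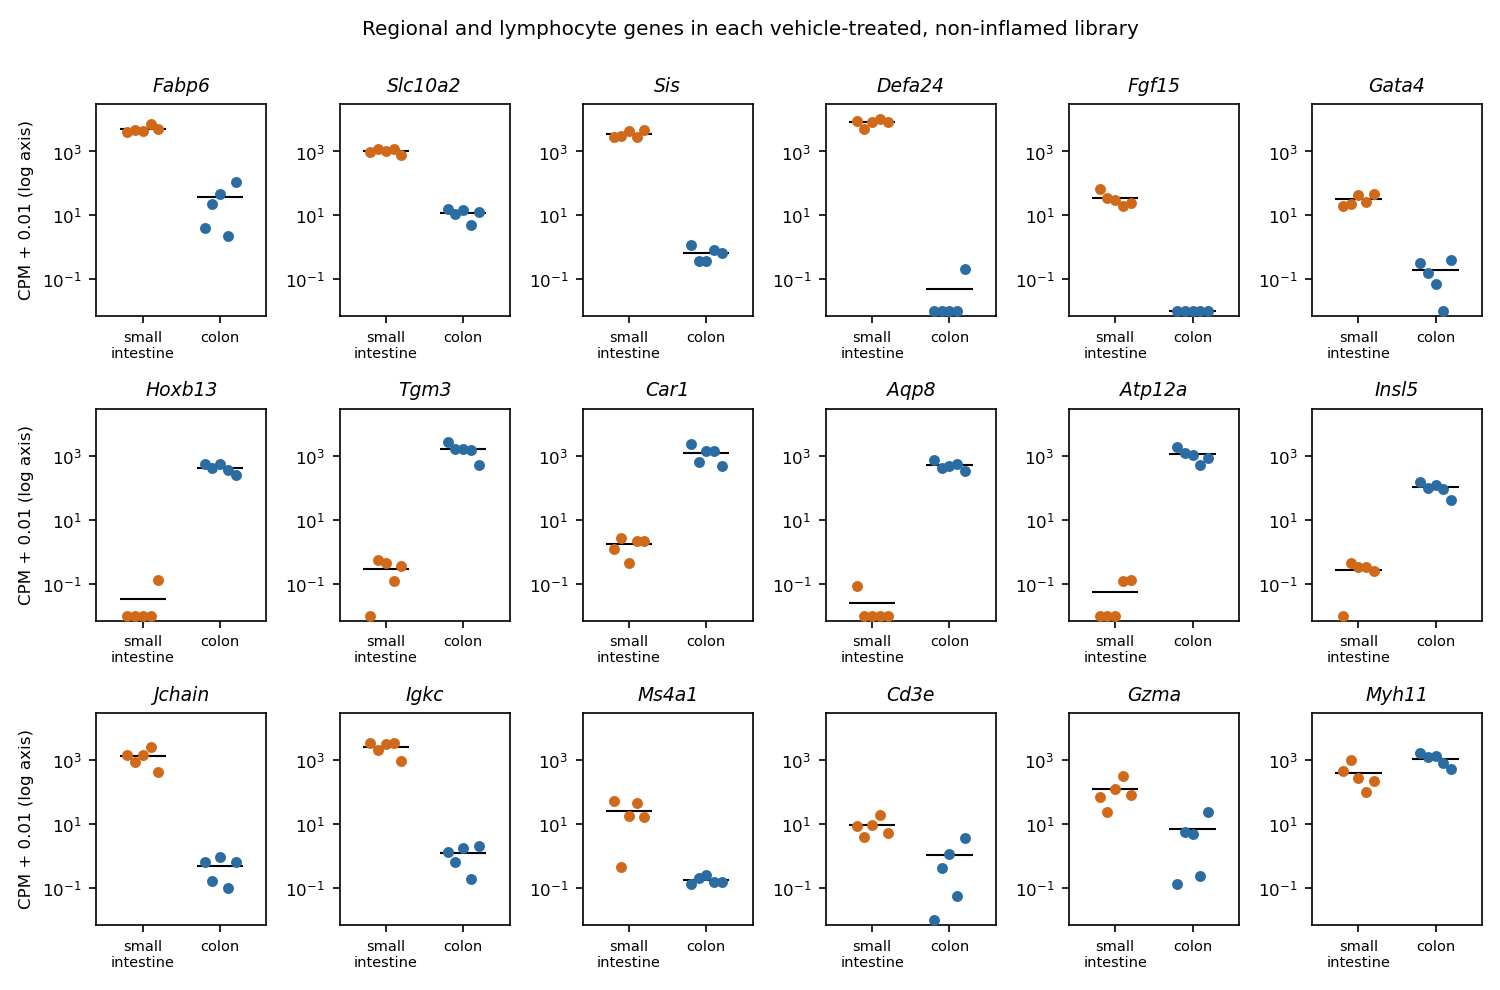
Level of 18 regional, lymphocyte and muscle genes in each library, in CPM plus 0.01 on a log axis, with small intestine libraries left and colon libraries right; points are libraries and lines are means. Ileal and colonic genes separate the groups without overlap, and Jchain and Igkc are below 3 CPM in every colon library.

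The Rag1 gene did not serve as a check of the genotype. Rag1, which encodes the recombinase that assembles antigen receptor genes (chromosome 2, 101638282 to 101649501), had no count in any small intestine library, against 3.15, 1.72, 1.34, 2.97 and 1.97 CPM in the colon libraries labelled Rag1 null (adjusted p = 0.000178). The counts sum reads over the whole gene and do not show whether the deleted part was read, so the transcript checks nothing. B lineage transcripts, which depend on Rag1, were near 0 in the colon, as described below. Tnf, altered in the diseased littermates but wild type here, was 0.466 to 1.97 CPM in the small intestine and 0.182 to 7.81 CPM in the colon, and the groups overlapped (adjusted p = 0.315). Mapkapk2, which encodes MK2, the target of the study's inhibitor, was 104 ± 11.9 CPM in the small intestine and 95.4 ± 7.89 CPM in the colon (SD, n = 5 each) and did not pass the test (adjusted p = 0.68).

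The Hox genes split by cluster and by position within the cluster. Hox proteins give cells their position along the body axis, and genes with high paralog numbers are used toward the tail. Of 39 Hox genes, 28 could be tested, and 9 were higher and 14 lower in the small intestine. Of the tested genes in paralog groups 9 to 13, 10 were lower and none higher. Hoxc9, of the same groups, had too few counts to test and lay the other way, at 1.02 CPM in the small intestine and 0.0318 CPM in the colon. Of groups 1 to 8, 9 were higher and 4 lower. Hoxb13 (chromosome 11, 96194316 to 96197447) gave a single count in the small intestine, in replicate 5, against 548, 432, 562, 351 and 254 CPM in the colon (adjusted p = 1.16e-08). Hoxb13 is also a prostate gene, and colon replicate 6, at 351 CPM, held prostate transcripts. The part of prostate tissue in the Hoxb13 values was not tested. Hoxa13 (chromosome 6, 52257694 to 52260880) had no count in the small intestine and 69.8, 71, 83.5, 67.2 and 57.2 CPM in the colon, at least 1146-fold lower in the small intestine at a floor of 3 counts over the group. Hoxd13 was 0.0221 ± 0.0495 CPM in the small intestine and 106 ± 40.7 CPM in the colon (SD, n = 5 each), and Hoxa10 was 0.105 ± 0.0804 and 40.5 ± 4.29 CPM in the same order.

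Both directions occurred within the Hoxb cluster. Hoxb6, Hoxb7 and Hoxb8 were higher in the small intestine, with log2 fold changes of 3.73, 3.86 and 4.44. Hoxb9, the next gene, was 25.4 ± 4.63 CPM in the small intestine and 30.2 ± 5.62 CPM in the colon (adjusted p = 0.293), and Hoxb13 lies beyond it. All 4 Hoxc genes that could be tested were higher in the small intestine. Hoxc8 had 11.5, 23.6, 7.25, 4.42 and 3.96 CPM in the small intestine, against 1 count in 1 colon library (pooled ratio 967, 95% counting interval 173 to 38260; adjusted p = 1.12e-05). Hoxc6 was 3.15 to 12.9 CPM in the small intestine and 2 counts in all in the colon. Small intestine replicate 2 was highest for both Hoxc genes. Every called Hoxa gene was lower, with Hoxa3 at log2 -3.20, Hoxa5 at -1.71, Hoxa7 at -2.70 and Hoxa9 at -7.68, while Hoxa4 was 0.766 ± 0.598 CPM in the small intestine and 0.736 ± 0.367 CPM in the colon (adjusted p = 0.954).

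**Figure D2:**
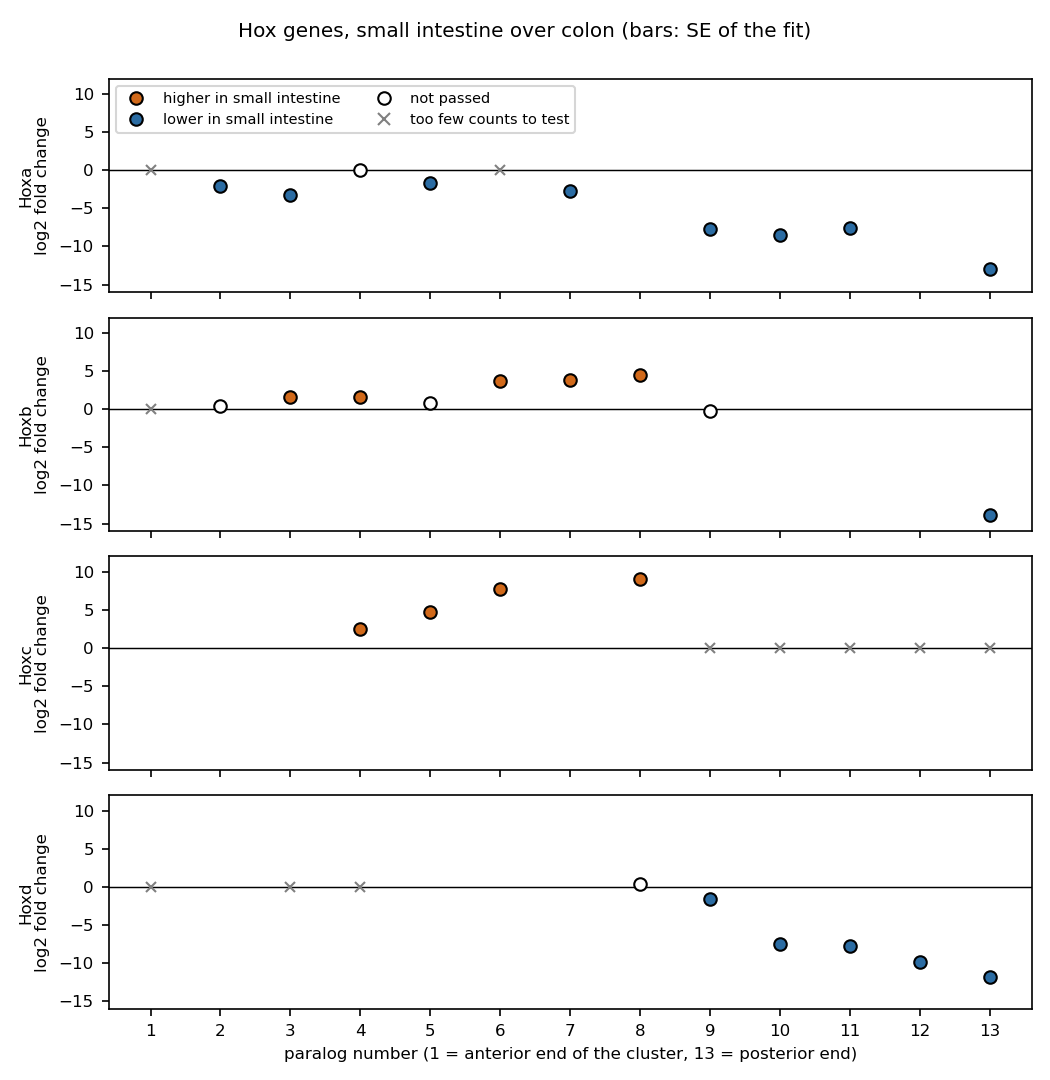
Fitted log2 fold change of each Hox gene, small intestine over colon, by paralog number in the Hoxa, Hoxb, Hoxc and Hoxd clusters, with SE bars that are mostly smaller than the points. Orange points are higher and blue points lower in the small intestine; the 10 called genes of paralogs 9 to 13 are all below 0. Hoxa13 and Hoxd12 had no count in the small intestine, so their fitted values have no fixed size.

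Among 18 tested epithelial transcription factors with a regional role, 9 were higher in the small intestine and 3 lower, against 13.7% and 11.3% of all genes. Gata4, which keeps jejunal identity and represses ileal genes, had 19.4, 22.4, 44.1, 26.4 and 46.4 CPM in the small intestine and 0.303, 0.152, 0.0611, 0 and 0.393 CPM in the colon (log2 fold change 7.35, SE 0.59, adjusted p = 2.84e-06). Its relative Gata5 was 122 ± 14.4 CPM in the small intestine and 0.322 ± 0.0593 CPM in the colon (SD, n = 5 each; log2 fold change 8.51, SE 0.20, adjusted p = 6.71e-10). Gata6, the third GATA factor of the gut, was 65.5 ± 10 CPM in the small intestine and 51.9 ± 5.23 CPM in the colon and did not pass (adjusted p = 0.151). The nuclear receptor Hnf4g (log2 3.78), the lipid regulator Creb3l3 (5.87), Maf (4.83) and the intestinal homeobox gene Isx (3.33) were also higher. Hnf4a, the close relative of Hnf4g, was 1216 ± 145 CPM in the small intestine and 857 ± 227 CPM in the colon (adjusted p = 0.149). The caudal factors went in opposite directions. Cdx2 was higher in the small intestine (298 ± 55.5 against 80.6 ± 53.9 CPM in the colon, log2 1.85) and Cdx1 was lower (log2 -0.87, adjusted p = 0.000384).

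All 15 tested brush border enzymes were higher in the small intestine, with a median log2 fold change of 7.47 against -0.05 over all genes tested. Sis, the sucrase-isomaltase that splits sucrose and starch fragments (chromosome 3, 72888557 to 72967863), had 2767, 3056, 4528, 2853 and 4605 CPM in the small intestine, against 1.15, 0.354, 0.366, 0.802 and 0.639 CPM in the colon (log2 fold change 12.35, SE 0.46, adjusted p = 1.16e-08). Lct, lactase, had 60.4, 306, 287, 97.3 and 522 CPM in the small intestine and 0.0606, 0.405, 0.305, 0.236 and 0.147 CPM in the colon (log2 fold change 10.01, SE 0.77, adjusted p = 2.03e-06), a wide spread within the small intestine that still left the groups apart. The aminopeptidase Anpep was 7221 ± 2365 CPM in the small intestine and 12.8 ± 5.23 CPM in the colon (SD, n = 5 each). The smallest change in the list was that of the metalloprotease Mep1a (log2 2.09, adjusted p = 0.000959).

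Solute transporters followed, with 16 of 19 tested genes higher, 2 lower and a median of 5.02. The sodium-glucose transporter Slc5a1 was 2585 ± 552 CPM in the small intestine and 227 ± 60.7 CPM in the colon (log2 3.48). The neutral amino acid transporter Slc6a19 was 1080 ± 273 CPM in the small intestine and 1.45 ± 0.368 CPM in the colon (log2 9.50). Slc5a12, a monocarboxylate transporter, was 38.5 to 102 CPM in the small intestine and a single count in the colon, and the nucleoside transporter Slc28a1 was 1.75 to 29.6 CPM in the small intestine with no count in the colon, at least 293-fold higher. The 2 lower members handle iron and folate. Slc40a1, the iron exporter ferroportin, had 67.4, 70.6, 40.7, 82.1 and 36.7 CPM in the small intestine and 562, 298, 531, 279 and 192 CPM in the colon (log2 fold change -2.67, SE 0.34, adjusted p = 0.000131), with every colon library above every small intestine library. Slc46a1, the proton-coupled folate transporter, was 8.28 to 18.4 CPM in the small intestine and 11.4 to 81 CPM in the colon (log2 -1.76, adjusted p = 0.0132), and the groups overlapped, with colon replicate 7 lowest of its group. The metal transporter Slc11a2 was 56 ± 7.05 CPM in the small intestine and 48 ± 7.13 CPM in the colon (adjusted p = 0.379).

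Of 19 tested genes of lipid absorption, 17 were higher and 2 lower, with a median of 4.10. Apoa1, the main protein of high-density lipoprotein, had 3656, 6305, 8086, 15040 and 10790 CPM in the small intestine and 4.12, 0.203, 0.122, 0.0472 and 0.884 CPM in the colon (log2 fold change 12.99, SE 1.24, adjusted p = 1.15e-05). Apoa4, a lipoprotein component secreted with chylomicrons, had 222, 173, 1510, 2762 and 2189 CPM in the small intestine, where replicates 1 and 2 lay below the other 3, and 1.09, 0.101, 0, 0 and 0.246 CPM in the colon (log2 fold change 12.21, SE 1.31, adjusted p = 3.09e-05). Npc1l1, the cholesterol uptake transporter, was 641 ± 252 CPM in the small intestine and 0.162 ± 0.059 CPM in the colon, and Mttp, which loads lipid onto apolipoprotein B, was 1320 ± 367 and 4.72 ± 2.53 CPM in the same order (log2 11.86 and 8.09). Fabp1 and Fabp2, fatty acid carriers of enterocytes, rose with log2 fold changes of 10.05 and 6.21. The lipid droplet coat gene Plin2 was 66.4 to 89.3 CPM in the small intestine and 125 to 273 CPM in the colon (log2 -1.28, adjusted p = 0.000974). The lipoprotein receptor Scarb1 was also lower (log2 -1.33, adjusted p = 0.0068).

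All 9 tested genes of ileal bile acid and vitamin B12 uptake were higher, with a median of 7.04. Besides Fabp6, Slc10a2 and Fgf15 above, the basolateral bile acid exporter subunits Slc51a and Slc51b had log2 fold changes of 8.29 and 4.18. Cubn, which with Amn forms the receptor for intrinsic factor bound to vitamin B12, had 554, 940, 516, 137 and 589 CPM in the small intestine and 0.485, 0.608, 0.488, 0.33 and 0.442 CPM in the colon (log2 fold change 10.13, SE 0.57, adjusted p = 2.12e-07). Amn was 189 ± 65.2 CPM in the small intestine and 0.872 ± 0.375 CPM in the colon. Nr1h4, the bile acid receptor FXR, changed least in the list (179 ± 57.2 CPM in the small intestine, 64 ± 27.4 CPM in the colon, log2 1.45, adjusted p = 0.00327).

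Colonic ion and water transport moved the other way, with 16 of 22 tested genes lower in the small intestine, none higher and a median of -3.19. Atp12a, the colonic proton-potassium pump, had 2 counts in all in the small intestine, against 1832, 1268, 1083, 535 and 885 CPM in the colon (adjusted p = 2.94e-08). The subunits of the epithelial sodium channel fell together. Scnn1b had no count in the small intestine and was 7.9 to 28.8 CPM in the colon, Scnn1g gave 3 counts in the small intestine against 8.36 to 43.6 CPM in the colon, and Scnn1a was 13.7 ± 3.81 CPM in the small intestine and 175 ± 50.3 CPM in the colon (log2 -3.71). The chloride-bicarbonate exchanger Slc26a3 (log2 -3.36), carbonic anhydrases Car2 (-7.67) and Car4 (-3.02), and Hsd11b2 (-3.67), which shields the aldosterone receptor from glucocorticoids, were also lower. The receptor gene itself, Nr3c2, was lower by less (log2 -1.19, adjusted p = 0.00097). The chloride channel Cftr was 124 ± 30.4 CPM in the small intestine and 127 ± 48.5 CPM in the colon, and the butyrate transporter Slc5a8 was 358 ± 80.1 and 409.5 ± 78.7 CPM in the same order (adjusted p = 0.897 and 0.448).

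Of 22 tested colonocyte genes, 14 were lower and 2 higher, with a median of -2.83. Tgm3, a transglutaminase, was 0 to 0.556 CPM in the small intestine and 526 to 2746 CPM in the colon (log2 fold change -12.52, SE 0.71, adjusted p = 2.2e-07). Saa1, an acute phase apolipoprotein, had 66.4, 47.4, 64.6, 692 and 22 CPM in the small intestine, highest in replicate 4, and 2342, 1772, 6620, 1164 and 785 CPM in the colon, highest in replicate 4 (log2 fold change -3.85, SE 1.01, adjusted p = 0.0148). The log2 fold change of Saa1 was -3.07 without colon replicate 4 and -5.69 without small intestine replicate 4. With the colon libraries of batch 4 alone the adjusted p of Saa1 was 0.225, and with a batch term 0.272. Ly6g was 0 to 0.35 CPM in the small intestine and 79.3 to 699 CPM in the colon (log2 fold change -11.90, SE 0.87, adjusted p = 1.34e-06). Ly6g is best known from neutrophils and was the lower one of 7 tested genes of the neutrophil list, of which 2 were higher, Mmp9 (log2 1.67) and Il1r2 (1.76). With 1 library left out, 0 to 3 of the list were higher and 1 to 3 lower. The neutrophil genes S100a8 and S100a9, too low to test, were 0.0759 to 0.233 and 0 to 0.553 CPM in the small intestine and 0 to 28.9 and 0 to 14.6 CPM in the colon, highest in colon replicate 7. The 2 higher colonocyte genes were Prap1, a proline-rich acidic protein, which had 349.7 to 1259 CPM in the small intestine and 0.405 to 1.27 CPM in the colon (log2 9.87), and the villus and surface keratin Krt20 (log2 1.29, adjusted p = 0.0127, groups overlapping).

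Paneth cell genes gave the widest separation. Of 20 tested, 17 were higher and 1 lower, and their median of 12.9 became 11.98 with genes at 0 in the colon set at their bound. Lyz1, the Paneth cell lysozyme, had 11370, 4886, 11710, 17720 and 11950 CPM in the small intestine and 5.7, 6.99, 10, 3.07 and 11.5 CPM in the colon (log2 fold change 10.56, SE 0.58, adjusted p = 1.89e-07). Defa24, an alpha-defensin (chromosome 8, 21734494 to 21735471), had 9147, 4968, 8296, 10270 and 8204 CPM in the small intestine, lowest in replicate 2, and gave counts in colon replicate 7 alone (adjusted p = 2.88e-08). Defa20, whose promoter is shown above, was 2962 to 7005 CPM in the small intestine and had no count in the colon, at least 164800-fold higher. Of 22 annotated alpha-defensin genes 20 could be tested and all 20 were higher. Together they took 2.69 to 5.66% of all counts in the small intestine libraries, against at most 0.000229% in a colon library. At that colon level they could pass the count filter only through the small intestine, so the direction of the 20 was set by the filter. Alpha-defensin genes resemble each other in sequence, so how the reads were shared between single members is uncertain and the family total is the firmer value. Ang4, a ribonuclease of Paneth and goblet cells, was 278 to 800.1 CPM in the small intestine and 6.83 to 151 CPM in the colon (log2 fold change 3.68, SE 0.84, adjusted p = 0.00698; log2 4.66 without colon replicate 2). The related pentraxin genes Mptx1 and Mptx2 split by region. Mptx2 was 179 to 795 CPM in the small intestine and 0 to 0.183 CPM in the colon, whereas Mptx1 had 1.75, 2.45, 0.42, 1.77 and 2.91 CPM in the small intestine and 3459, 4409, 3418, 1859 and 397 CPM in the colon (log2 fold change -10.54, SE 0.81, adjusted p = 1.96e-06). In bulk tissue a smaller number of cells of a type and less RNA per cell cannot be told apart.

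**Figure D3:**
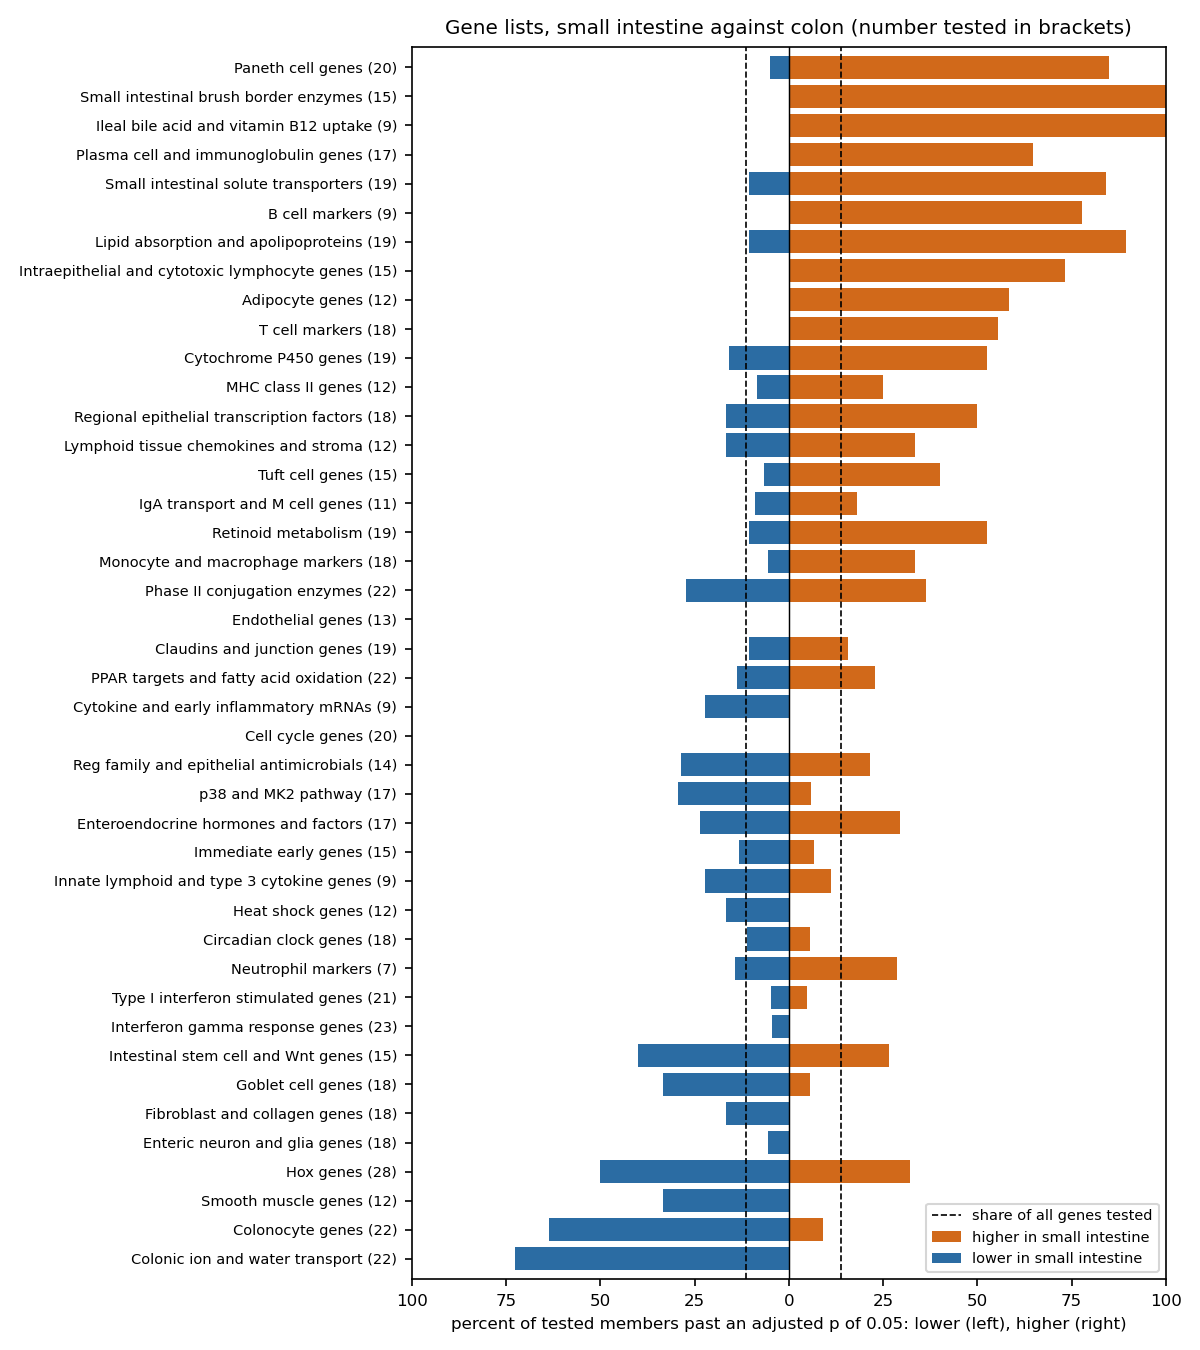
Share of the tested members of each gene list that passed an adjusted p of 0.05, lower in the small intestine to the left and higher to the right, with lists ordered by median fold change from the top. Dashed lines give the shares of all genes tested, 11.3% lower and 13.7% higher. Small intestinal absorptive and Paneth lists lie at the top and colonic transport at the bottom, while cell cycle and endothelial lists hold no called gene.

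Most goblet cell genes did not pass. Of 18 tested, 1 was higher and 6 lower, and the main gel-forming mucin Muc2 was 968 ± 533 CPM in the small intestine and 852 ± 313 CPM in the colon (SD, n = 5 each; adjusted p = 0.812). The members that were lower included the membrane mucins Muc1 (0.0759 to 0.334 CPM in the small intestine, 7.31 to 28.1 CPM in the colon, log2 -6.46) and Muc4 (log2 -2.35). Retnlb, a goblet cell antimicrobial of the colon, was lower as well (0.304 to 2.21 CPM in the small intestine, 1.03, 169.8, 41.1, 22.4 and 139.7 CPM in the colon, adjusted p = 0.0017), although colon replicate 1 lay within the small intestinal range. With limma-voom the adjusted p of Retnlb was 0.163. Among 15 tested tuft cell genes 6 were higher and 1 lower. Siglecf (log2 3.50) and the succinate receptor Sucnr1 (4.09, or 5.78 without colon replicate 6) had the largest changes, and the prostaglandin D synthase Hpgds was the lower one (-1.54). The general tuft cell genes Dclk1 and Pou2f3 did not pass (adjusted p = 0.581 and 0.437).

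Several enteroendocrine hormones differed, while general genes of these cells did not pass. Insl5, a hormone of colonic L cells, had 0, 0.445, 0.315, 0.332 and 0.233 CPM in the small intestine and 157, 99.8, 125, 90.3 and 42.5 CPM in the colon (log2 fold change -8.67, SE 0.54, adjusted p = 4.06e-07). Peptide YY (Pyy) was also lower, at 28.2 ± 9.43 CPM in the small intestine and 104 ± 48 CPM in the colon (log2 -1.91, adjusted p = 0.000704). Nts, neurotensin, had 72.5, 91.2, 111, 253 and 158 CPM in the small intestine and 0.303, 0.0506, 0.672, 0.33 and 0.197 CPM in the colon (log2 fold change 8.76, SE 0.56, adjusted p = 4.72e-07). Gip, an incretin, was 5.54 to 21.9 CPM in the small intestine with no count in the colon, at least 423-fold higher, and secretin (Sct) rose by log2 4.34. Chga, a granule protein of all enteroendocrine cells, was 46.9 ± 9.89 CPM in the small intestine and 50.3 ± 18.7 CPM in the colon (adjusted p = 0.762), and proglucagon (Gcg) was 48.2 ± 9.53 and 51.3 ± 14.2 CPM in the same order (adjusted p = 0.711). Of 17 tested members 5 were higher and 4 lower, with 3 higher without colon replicate 1 and 2 lower without colon replicate 6 or small intestine replicate 1 or 5.

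None of 20 tested cell cycle genes passed with edgeR, DESeq2 or limma-voom, none had an unadjusted p under 0.05 with edgeR, and their median was 0.05. Without colon replicate 7, 2 of them were higher. Among 15 stem cell and Wnt genes 4 were higher and 6 lower. Axin2, a feedback inhibitor of Wnt signalling, was 75.3 ± 15.5 CPM in the small intestine and 32.1 ± 8.51 CPM in the colon (log2 1.20, adjusted p = 0.00212), and the RNA-binding protein Msi1 was higher too (log2 3.08). The crypt boundary receptor Ephb3 was 11.5 ± 3.42 CPM in the small intestine and 37.5 ± 4.29 CPM in the colon, and Sox9 was 19 ± 2.49 and 52.5 ± 15.8 CPM in the same order (log2 -1.73 and -1.49). The stem cell receptor Lgr5 was 11.9 ± 2.52 CPM in the small intestine and 7.64 ± 1.73 CPM in the colon (adjusted p = 0.0844).

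Of 19 tested claudin and junction genes 3 were higher and 2 lower, or 1 lower without colon replicate 1 or 2 or small intestine replicate 1, 3 or 5. These counts lie near the shares of all genes tested, 13.7% higher and 11.3% lower. Cldn15, a sodium pore of the small intestine, was 417 ± 113 CPM in the small intestine and 79.1 ± 26.7 CPM in the colon (log2 fold change 2.36, SE 0.28, adjusted p = 6.72e-05). Cldn8, which seals the distal colon against sodium backflow, was 2.73 to 10.2 CPM in the small intestine and 73 to 194 CPM in the colon (log2 fold change -4.09, SE 0.37, adjusted p = 8.12e-06). Of 14 tested Reg family and epithelial antimicrobial genes 3 were higher, 4 were lower and 7 did not pass, with a median of -0.02. With 1 library left out, 1 to 4 of them were higher and 3 to 4 lower. Reg3b, a lectin that kills or agglutinates bacteria, had 4744, 5561, 6977, 33580 and 7671 CPM in the small intestine, with replicate 4 far above the rest, and 4.79, 25.1, 60.9, 5.75 and 1309 CPM in the colon, with replicate 7 far above the rest (log2 fold change 5.33, SE 1.59, adjusted p = 0.0288). The adjusted p of Reg3b was 0.0606 without small intestine replicate 4, 0.0606 without colon replicate 2 and 0.0581 without colon replicate 4. The 4 Reg3 genes are similar in sequence and together took 0.676 to 3.63% of counts in the small intestine, against 0.000688 to 0.235% in the colon. Reg3a had 60.7, 116, 64.1, 168 and 125 CPM in the small intestine and 0 to 0.344 CPM in the colon (log2 10.30).

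Detoxifying enzymes were divided between the regions. Of 19 tested cytochrome P450 genes 10 were higher and 3 lower, or 5 lower without colon replicate 7. Cyp3a11, a broad drug oxidase, had 78.4, 179, 346, 490 and 327 CPM in the small intestine and 0.182, 0, 0, 0.0472 and 0.0491 CPM in the colon (log2 fold change 12.13, SE 0.76, adjusted p = 4.06e-07), and Cyp3a25 had 133 to 253 and 0 to 0.121 CPM in the same order. The 3 lower genes all belong to the Cyp2d family. Cyp2d10 had no count in the small intestine and 26.1 to 73.5 CPM in the colon, at least 844-fold lower, and Cyp2d34 gave 1 count in the small intestine and 66.4 to 234 CPM in the colon. Cyp2d26, of the same family, was higher (log2 3.37). The Cyp2d genes resemble each other closely, so reads may be shared among them. Of 22 conjugation enzymes 8 were higher and 6 lower. The glucuronosyltransferase Ugt2a3 had 15.4 to 72.8 CPM in the small intestine and 1 count in the colon, while the sulfotransferase Sult1a1 was 10.8 ± 7.03 CPM in the small intestine and 261 ± 84.5 CPM in the colon (log2 fold change -4.61, SE 0.45, adjusted p = 1.51e-05). Among 22 genes of PPAR signalling and fatty acid oxidation 5 were higher and 3 lower, where 13.7% of all genes tested were higher and 11.3% lower. Pparg, a lipid-sensing receptor, was 3.76 to 10.6 CPM in the small intestine and 25.2 to 36.6 CPM in the colon (log2 -2.11), and its relative Ppara went the other way (log2 1.63, adjusted p = 0.0103). Of 19 tested genes of retinoid metabolism 10 were higher and 2 lower, among them Aldh1a1 (log2 2.37), which makes retinoic acid, and the retinol carrier Rbp2 (3.67), with Rdh16 (-2.68) and Dhrs9 (-3.55) the lower ones. Dhrs9, a short-chain dehydrogenase, had 1.59, 1.33, 3.47, 2.65 and 1.51 CPM in the small intestine and 2.79, 9.88, 7.63, 14.3 and 85.7 CPM in the colon, highest in replicate 7. Its log2 fold change was -2.06 without colon replicate 7 (adjusted p = 0.00758), and it did not pass with limma-voom (-2.32, adjusted p = 0.0684).

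B lineage transcripts were near 0 in the colon libraries of the Rag1 null mice. Jchain, which joins secreted IgA and IgM into polymers (chromosome 5, 88519809 to 88527891), had 1451, 884, 1436, 2640 and 442 CPM in the small intestine and 0.667, 0.152, 0.916, 0.0943 and 0.639 CPM in the colon (log2 fold change 11.43, SE 0.76, adjusted p = 6.74e-07). Igha, the constant gene of IgA, had 6023, 4016, 6750, 4942 and 1806 CPM in the small intestine and 1.52, 1.57, 1.95, 0.424 and 3.54 CPM in the colon, and Igkc, the kappa light chain, was 982 to 3423 and 0.189 to 2.11 CPM in the same order (log2 11.32 and 11.06). All 100 immunoglobulin genes and segments that could be tested, of 329 annotated, were higher in the small intestine. Together they took 0.338 to 1.24% of counts there and 0.000393 to 0.00132% in the colon. With so few colon counts, nearly all of them could pass the count filter only through the small intestine. Their shared direction is therefore no added evidence, and the family total is the value to read. Of 17 tested plasma cell genes 11 were higher and none lower, and the 6 that did not pass include Xbp1, Sdc1 and Txndc5, which epithelial cells also express. Pigr, the epithelial receptor that carries polymeric IgA into the lumen, was 3268 ± 951 CPM in the small intestine and 5009 ± 949.7 CPM in the colon (SD, n = 5 each; adjusted p = 0.0829).

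Follicular B cell genes gave the same picture with 1 exception among the libraries. Ms4a1 (CD20) had 52.5, 0.445, 17.6, 45.2 and 16.7 CPM in the small intestine and 0.121, 0.203, 0.244, 0.141 and 0.147 CPM in the colon. Small intestine replicate 2 was near the colonic level, and the gene did not pass the filter on low counts. The 19 B cell genes in the table summed to 504, 43.4, 205, 334 and 184 CPM in the small intestine and 15.5, 14, 25, 15.1 and 21.6 CPM in the colon. Of the 9 that could be tested, 7 were higher, among them Cd79a (log2 8.35) and Pou2af1 (8.26). Without small intestine replicate 2, 18 were higher, and none was lower in either fit. The list also held 17 or 18 higher genes without any 1 of the colon libraries, when 19 members passed the filter. Members as low in the colon as Ms4a1 could pass the count filter only through the small intestine. The number tested therefore follows the filter, the shared direction of such members is no added evidence, and the sum is the value to read. Plasma cell transcripts in replicate 2 were within the range of the other small intestine libraries.

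T cell transcripts were present in both groups, with wide spread in the colon. Rag1 null mice make no mature T cells of their own, and the mice that gave the colon libraries had received T cells. The 20 T cell genes summed to 186, 55.1, 151, 265 and 91.2 CPM in the small intestine and 6.73, 22.5, 26.8, 7.12 and 91 CPM in the colon, where replicate 7 lay above small intestine replicate 2 and next to replicate 5. Of 18 tested, 10 were higher in the small intestine and none lower. Without colon replicate 7, 18 were higher, and leaving out 1 of the other libraries left 4 to 6, except for 10 without small intestine replicate 2. With only the libraries lacking Y-linked transcripts (2 against 4) none passed. Cd3e, the epsilon chain of CD3, had 8.96, 4.01, 9.14, 19.4 and 5.36 CPM in the small intestine and 0, 0.405, 1.16, 0.0472 and 3.78 CPM in the colon, and its adjusted p of 0.0406 passed 0.05 by little. It did so without colon replicate 7 or small intestine replicate 2, and not without any other 1 library (adjusted p 0.0534 to 0.0961). Cd8a, a coreceptor of cytotoxic and intraepithelial T cells, had 14.6, 6.01, 16.6, 27.1 and 11.8 CPM in the small intestine and 0, 0.912, 1.16, 0 and 2.31 CPM in the colon (log2 fold change 4.06, SE 0.92, adjusted p = 0.00658; log2 4.84 without colon replicate 7). Cd4 was 7.57 to 18.8 CPM in the small intestine and 2.12 to 14.6 CPM in the colon and did not pass (adjusted p = 0.173). Genes of gamma delta T cells and cytotoxic cells, common among the intraepithelial lymphocytes of the small intestine, were higher in 11 of 15 tested members, and in 7 without colon replicate 2 or without small intestine replicate 3 or 4. Tcrg-C1 had 8.43, 4.12, 13.2, 21.7 and 8.74 CPM in the small intestine and 0.303, 0.152, 0.794, 0.33 and 0.393 CPM in the colon (log2 fold change 4.79, SE 0.54, adjusted p = 4.42e-05), and Tcrg-C2 was 4.67 to 27.1 and 0 to 0.672 CPM in the same order. Gzma, a granzyme, had 72.5, 24.9, 131, 329.6 and 81.7 CPM in the small intestine, against 0.121, 5.62, 5.01, 0.236 and 24.5 CPM in the colon (log2 fold change 4.12, SE 1.14, adjusted p = 0.0195). Of 9 tested innate lymphoid and type 3 cytokine genes 1 was higher and 2 lower, beside 13.7% and 11.3% of all genes tested.

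Among 18 tested monocyte and macrophage genes 6 were higher, and 11 without colon replicate 7, including the complement genes C1qa, C1qb and C1qc (log2 1.02, 1.02 and 0.83) and the engulfment receptor Mertk (1.79). Leaving out 1 of the other libraries gave 4 to 8 higher. Cd14, the endotoxin coreceptor, was the lower one, at 7.9 to 10.3 CPM in the small intestine and 27.9 to 91.1 CPM in the colon (log2 fold change -2.66, SE 0.32, adjusted p = 7.24e-05). Of 12 MHC class II genes 3 were higher and 1 lower, beside 13.7% and 11.3% of all genes tested. H2-Ob and H2-Eb2, B cell expressed members, had log2 fold changes of 4.51 and 4.30, while H2-Aa was 784 to 2188 CPM in the small intestine and 51.8 to 1186 CPM in the colon (adjusted p = 0.179). Without colon replicate 7, which had the most T cell transcripts of the colon libraries, 9 class II genes were higher. Interferon gamma response genes gave 0 higher and 1 lower of 23, and type I interferon genes 1 and 1 of 21, both below the 25% of all genes. Without colon replicate 7 the interferon gamma genes gave 4 higher and 0 lower. Gbp2, an interferon-induced GTPase, had 38.7, 32.5, 42.6, 51.4 and 25.3 CPM in the small intestine and 32.3, 137, 197, 31.1 and 830.3 CPM in the colon, highest in replicate 7, with overlapping groups (adjusted p = 0.0278), and it did not pass without colon replicate 7 or without small intestine replicate 1, 2, 3 or 5.

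MK2 is switched on by p38 kinases and stabilises inflammatory mRNAs. Of 17 tested genes of the p38 and MK2 pathway 1 was higher and 5 lower, or 3 lower without colon replicate 2. Over all genes tested 13.7% were higher and 11.3% lower. Mapkapk3, the closest relative of Mapkapk2, was 48.2 ± 12.5 CPM in the small intestine and 93.4 ± 6.82 CPM in the colon (log2 -0.99, adjusted p = 0.00131). Mapkapk5 went the other way, at 92.1 ± 21.3 CPM in the small intestine and 38.9 ± 7.47 CPM in the colon (log2 1.21, adjusted p = 0.000535). Hspb1, a small heat shock protein that MK2 phosphorylates, had 20.4, 35.3, 21.6, 14.9 and 8.62 CPM in the small intestine and 102, 46.4, 144, 31.6 and 25.5 CPM in the colon (log2 -1.81, adjusted p = 0.0215). It did not pass without colon replicate 1 (adjusted p = 0.0555), without colon replicate 4 (log2 -1.37, adjusted p = 0.0519) or without small intestine replicate 4 (adjusted p = 0.0513), and with the colon libraries of batch 4 alone its value was -0.53 (adjusted p = 0.512). Mapk14, which encodes p38 alpha, and Zfp36, which encodes the mRNA decay factor tristetraprolin, did not pass (adjusted p = 0.492 and 0.691). Of 9 tested cytokine genes 2 were lower, Tnfaip3 (log2 -0.87) and Cxcl5 (-3.91), and 14 of 23 listed members had too few counts to test. Cxcl5, a chemokine, had 0.835, 0, 0.946, 0.553 and 0.117 CPM in the small intestine and 0.909, 1.27, 8.61, 0.849 and 26 CPM in the colon, highest in replicate 7 (adjusted p = 0.0263). Without colon replicate 7 its log2 fold change was -2.53 (adjusted p = 0.074), and it did not pass without small intestine replicate 4 or 5, nor with limma-voom (adjusted p = 0.167). Immediate early genes gave 1 higher and 2 lower of 15, clock genes 1 and 2 of 18, and heat shock genes 0 and 2 of 12. These counts and those of the cytokine, innate lymphoid and type I interferon lists moved between 0 and 4 when 1 library was left out. Klf4, a differentiation factor of surface cells counted among the immediate early genes, was 380 ± 70.4 CPM in the small intestine and 726 ± 53.4 CPM in the colon (log2 -0.96).

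Of 12 smooth muscle genes 4 were lower and none higher, with a median of -1.21, and of 18 fibroblast genes 3 were lower and none higher. The smooth muscle list summed to 3694, 7130, 2686, 2119 and 2121 CPM in the small intestine, highest in replicate 2, and 10610, 7827, 11620, 5164 and 3523 CPM in the colon, lowest in replicate 7. Tagln, a contractile protein of smooth muscle, had 363, 724, 325, 390.3 and 225 CPM in the small intestine and 1883, 1240, 2271, 789.8 and 514 CPM in the colon (log2 fold change -1.75, SE 0.42, adjusted p = 0.0101), and small intestine replicate 2 lay within the colonic range. Without small intestine replicate 2, 11 smooth muscle genes and 7 fibroblast genes were lower. Without colon replicate 7, 8 smooth muscle genes were lower, without small intestine replicate 3, 2, and with only the libraries lacking Y-linked transcripts none. Postn, periostin of the tissue matrix, was 21 to 57.4 CPM in the small intestine and 121 to 292 CPM in the colon (log2 fold change -2.35, SE 0.32, adjusted p = 0.000199). None of 13 endothelial genes passed with edgeR, DESeq2 or limma-voom, with 1 at an unadjusted p under 0.05, and without small intestine replicate 2, 1 was lower. Of 18 neuron and glia genes 1 was lower, the glial filament Gfap (log2 -1.78, adjusted p = 0.0409). Without colon replicate 4 the value for Gfap was -0.98 (adjusted p = 0.0971), and it did not pass without colon replicate 6 or without small intestine replicate 1, 3, 4 or 5 either. Over the whole list 0 to 3 genes were lower with 1 library left out. The part of the muscle layer in other differences was not tested.

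Adipocyte genes were higher in 7 of 12 tested members, with a median of 2.87, and here 1 library stood out. The list summed to 379, 2011, 507, 441 and 481 CPM in the small intestine, with replicate 2 highest, and 189.9, 200.1, 188, 299 and 284 CPM in the colon. Adipoq, adiponectin, had 12.8, 123, 18.2, 24.1 and 15.8 CPM in the small intestine and 0.0606, 3.6, 2.26, 11.4 and 8.94 CPM in the colon, and Cfd, adipsin, had 40.2, 575, 51, 44.4 and 30.1 and 0, 19, 19.2, 24.7 and 34.4 CPM in the same order. Without colon replicate 2, 4 were higher, and without small intestine replicate 2 and colon replicates 6 and 7, 9. Of 19 pancreatic acinar genes 3 could be tested, and the trypsinogen Prss2 was 0 to 0.117 CPM in the small intestine and 0 to 0.639 CPM in the colon. Sycn was 0.0759 to 0.736 CPM in the small intestine and 1736, 607, 1240, 882 and 105 CPM in the colon (log2 fold change -10.96, SE 0.88, adjusted p = 2.84e-06), Cela1 was lower too (log2 -6.39), and Clps was higher (log2 3.62). The Y-linked genes summed to 2.28, 2.56, 156, 199.5 and 154 CPM in the small intestine and 2.85, 2.79, 5.74, 162 and 6.93 CPM in the colon, so the groups differ in sex make-up. None of the 4 passed with edgeR, DESeq2 or limma-voom, none had an unadjusted p under 0.05, and without colon replicate 6 all 4 were higher in the small intestine.

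**Figure D4:**
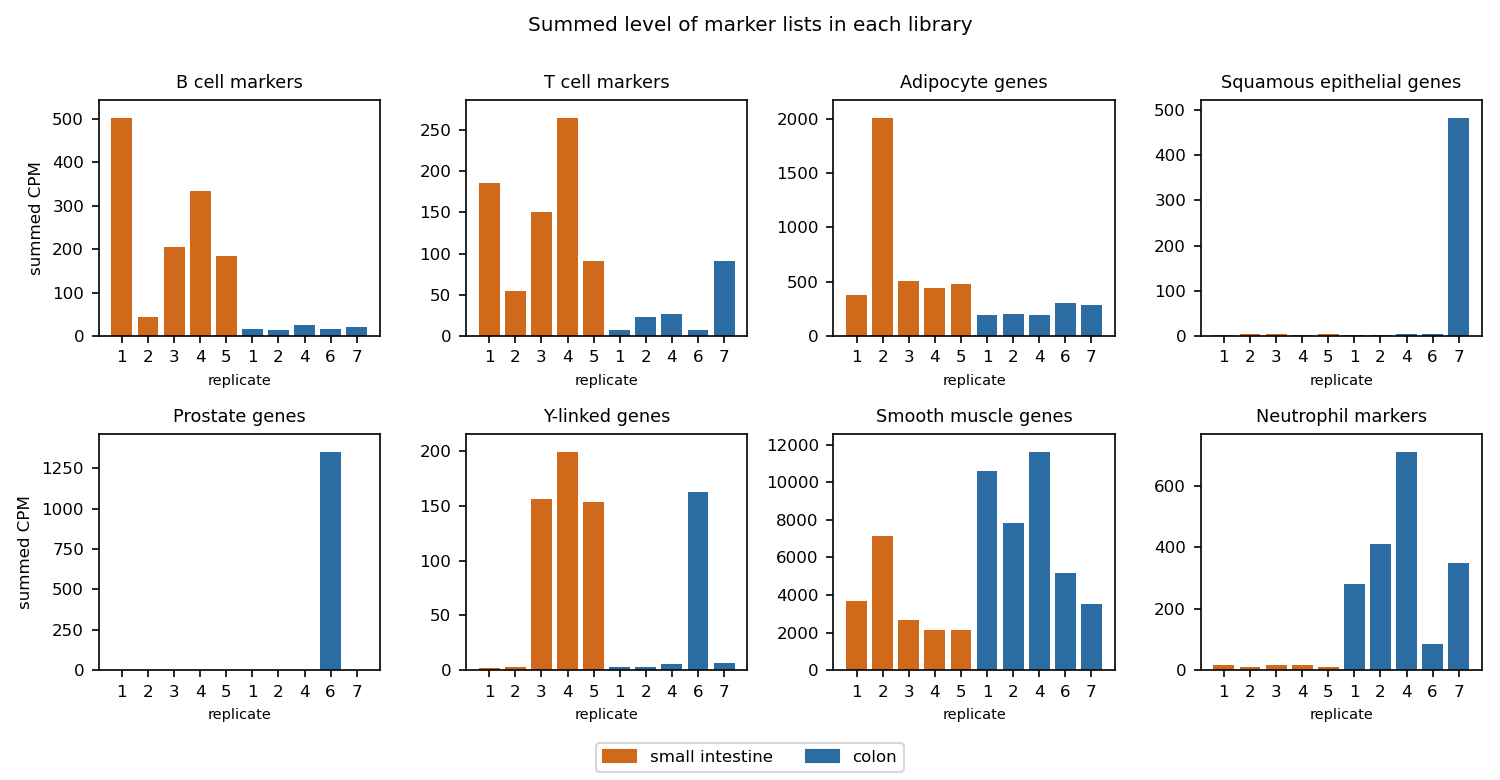
Summed level of 8 marker lists in each library, in CPM on linear axes, with small intestine replicates 1 to 5 left and colon replicates 1, 2, 4, 6 and 7 right. B cell genes are low in small intestine replicate 2 and in all colon libraries, adipocyte genes are high in small intestine replicate 2, and prostate genes stand out in colon replicate 6 and squamous genes in colon replicate 7. The neutrophil sum in the colon is mostly Ly6g.

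The regional contrast was then read in a second set of libraries that shares none with the first. Mice of the same genotypes had received the MK2 inhibitor ATI-450 at 3 mg/kg, with 5 small intestine libraries (TNF_NI_MKI, all of batch 2) and 6 colon libraries (TCT_NI_MKI, batches 1, 3 and 4). Of 14019 genes tested 5299 passed (37.8%), 2700 higher (19.3%) and 2599 lower (18.5%). Among the 13848 genes tested in both sets, 3230 were called in the same direction and 0 in opposite directions, which is 92.9% of the vehicle calls and 62% of the inhibitor calls. Of 1127 genes at least 4-fold different with vehicle and tested in both, 1107 (98.2%) were called in the same direction, where 9.42% of all genes tested were called at least 4-fold different with inhibitor, 5.54% higher and 3.88% lower. Across genes the log2 fold changes correlated at 0.967 (Pearson) and 0.899 (Spearman), over genes that are not independent. Sis was at log2 12.35 with vehicle and 12.86 with inhibitor, Fabp6 at 7.04 and 7.63, Lyz1 at 10.56 and 10.85, and Car1 at -9.55 and -9.14. Region, genotype, T cell transfer and batch differed between the groups in both sets, so the values recur in other libraries, and the shares of these factors cannot be told apart.

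With inhibitor 18 B cell genes passed the count filter, against 9 with vehicle, and 17 of them were higher. Members near 0 in the colon could pass the filter only through the small intestine, so these counts are no added evidence. The list summed to 111.1 to 671 CPM in the inhibitor-treated small intestine libraries and 9.846 to 18.63 CPM in the inhibitor-treated colon libraries. T cell genes were higher in 16 of 17 tested and smooth muscle genes lower in 11 of 12. Some lists with few calls with vehicle gave more with inhibitor. Of 17 tested neuron and glia genes 12 were lower and 1 higher, and of 18 fibroblast genes 9 were lower and none higher. Of 21 type I interferon genes 8 were lower and 3 higher. Over all genes tested with inhibitor 18.5% were lower and 19.3% higher. Adipocyte genes did not recur. With inhibitor 2 of 10 tested members were higher and 2 lower. Inhibitor-treated colon replicate 1 summed to 1482 CPM for these genes, against 169.3 to 457.6 CPM in the other inhibitor-treated colon libraries. The inhibitor-treated small intestine libraries summed to 234.7 to 421.8 CPM. The part of that colon library in the lower values was not tested. Adipoq was at log2 2.84 with vehicle (adjusted p = 0.0438) and -3.03 with inhibitor (adjusted p = 0.108), and Cfd was at 2.89 and -3.87. Ang4, at 3.68 with vehicle, was at 1.06 with inhibitor (adjusted p = 0.498). The difference between the sets was not tested.

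**Figure D5:**
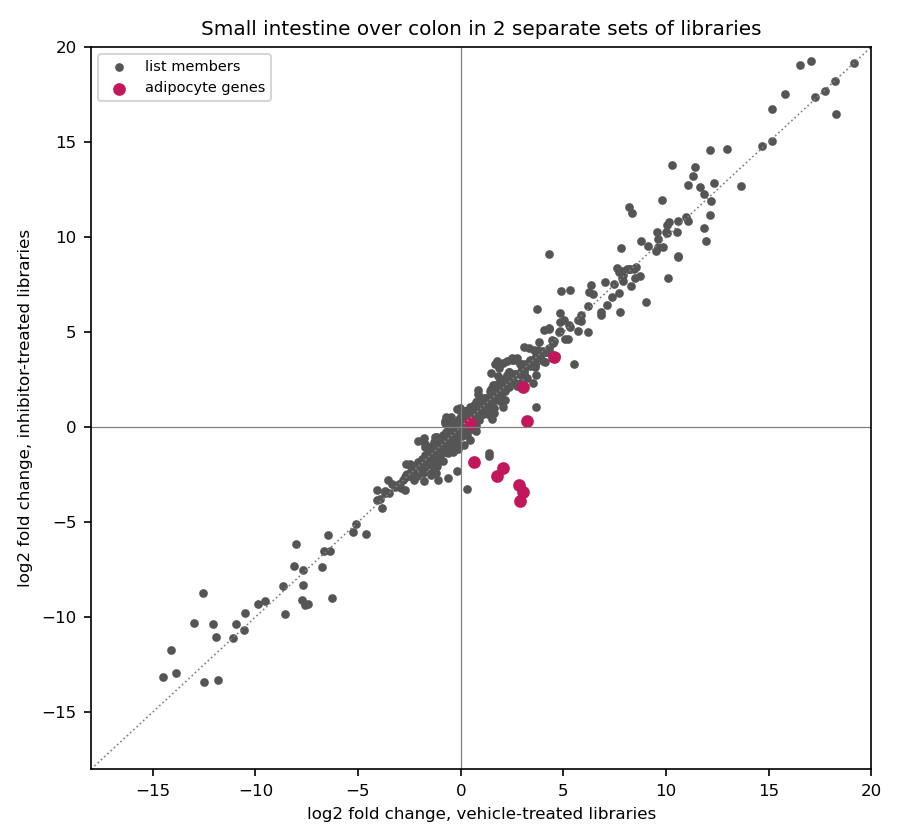
Log2 fold change of each list member, small intestine over colon, in vehicle-treated libraries (horizontal) and inhibitor-treated libraries (vertical); the dotted line marks equal values. Most members lie near the line over the whole range. Among the members away from it are adipocyte genes, several of which are above 0 with vehicle and below 0 with inhibitor, and Ang4. Inhibitor-treated colon replicate 1 had the highest adipocyte sum of the inhibitor-treated libraries shown.

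No batch holds libraries of both groups, so no within-batch value of the contrast exists. Within the colon group, batch 4 (replicates 6 and 7) against batch 1 (replicates 1, 2 and 4) gave 0 called genes of 14597 tested with edgeR (0%), with 884 at an unadjusted p under 0.05, and it gave 178 with DESeq2 and 4 with limma-voom. With batch 1 colon libraries alone 3198 genes were called, and with batch 4 alone 1961. A fit of all 44 libraries with batch as a term can be made because both models have inflamed libraries in batch 3, and it called 1863 genes. Of the 3539 calls 1578 (44.6%) were called in the same direction in that fit, and 1 was called with its sign turned. Of 134 named genes tested, 83 kept direction and side of the threshold in that fit, 49 kept their sign but lost their call and 2 reversed. Sis, Slc10a2, Fabp6, Aqp8, Hoxb13, Jchain and Igkc were among those still called. Car1 (log2 -5.16, adjusted p = 0.44) and Mptx1 (log2 -3.09, adjusted p = 0.606) were not. Others that lost their call include Rag1 (log2 -4.39), Insl5 (-6.73), Cyp2d10 (-11.59) and Retnlb (-3.09, adjusted p = 0.545). So did Cldn8 (adjusted p = 0.0515), Defa20 (0.0531), Apoa4 (0.0734) and Reg3a (0.0963).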

How the data were processed

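Poly-A selected RNA of mouse intestine was sequenced, and the expected counts per gene were deposited by the authors in 1 table per mouse model. Per the submitters' processing notes these estimates came from Salmon 0.14.1 on mm10/GRCm38, with DESeq2 used downstream. The annotation release is not given in the sources used here. The authors' normalized tables were made separately for each model and are not used here. Salmon divides reads among similar transcripts, so values of near-identical genes are estimates.

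The tables were joined on 29720 gene identifiers, of which 29395 matched a symbol in GENCODE M21. Counts were rounded to whole numbers. Genes passing filterByExpr (14136 of them) were tested with edgeR 4.0.16 in R 4.3.3, using TMM scaling and the robust quasi-likelihood test on the 5 and 5 libraries. A gene was called at a Benjamini-Hochberg adjusted p under 0.05. All adjusted p-values of single genes in the text come from this test unless another tool is named. CPM used TMM-scaled sizes over all 44 libraries. A group at 0 was set at 3 counts over the group (0.0609 CPM for the small intestine, 0.0319 CPM for the colon). Counting intervals are exact, at 95%, and cover counting error only.

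The named genes are a fixed set of regional and lymphocyte genes, up to 2 called members with the highest and 2 with the lowest fold change of each of 48 lists, and the 5 most changed genes each way. Some of them are not reported here, and further list members described were picked with their values in view. The members and lists were chosen with earlier results of these data known. Prostate and Y-linked lists, and the fits without libraries that hold other tissues or Y-linked transcripts, were added after seeing the data. Alternatives were no count filter, a 2-fold minimum, RLE, upper-quartile or no scaling, limma 3.58.1 (voom with sample weights), DESeq2 1.42.0, a replicate block, each library left out, and batch restrictions. On simulated counts for 13725 genes of the vehicle comparison, 27 of 100 genes changed 2-fold and 79 of 100 changed 4-fold were called, with 5 false calls.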

Additional observations from a re-analysis of the deposited data

Results flagged for a closer look

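Of 20 groups of 5 library sums tested with Dixon's criterion, at a critical value of 0.71, 8 had a library far from the rest. Chance gives about 1 in 20 only for lists chosen without sight of the data. The lists were chosen with earlier results known, and some libraries occur more than once, so the 8 are a description. Colon replicate 6 was one of these libraries, in which the prostate genes summed to 1350 CPM against at most 0.0982 CPM in the other colon libraries. The prostate list was added after these transcripts had been seen, so its place among the 8 is a description. In the same library the red blood cell genes summed to 223 CPM, with the next at 72.3 CPM. Squamous epithelial genes summed to 483 CPM in colon replicate 7, with the next library at 4.76 CPM. T cell genes summed to 91 CPM in that library, with the next at 26.8 CPM. Reg family and antimicrobial genes summed to 63100 CPM in small intestine replicate 4, with the next at 18700 CPM. The same list summed to 27500 CPM in colon replicate 4, with the next at 17400 CPM. Adipocyte genes summed to 2010 CPM in small intestine replicate 2, with the next at 507 CPM. Pancreatic acinar genes summed to 71.1 CPM in small intestine replicate 2, below the next at 114 CPM. The part of these libraries in single results was not tested beyond the fits that leave them out.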

How the results depend on the processing

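The count of 3539 called genes was within 1.5 times under RLE (3539), upper-quartile (3585) and no scaling (3738), DESeq2 (4216), no filter (3715), a fit of all 44 libraries (4985), batch 1 colon libraries alone (3198) and without the libraries holding other tissues (3312). It was 5561 with limma-voom, 1258 with a 2-fold minimum, 1961 with batch 4 colon libraries alone, 1863 with a batch term and 1709 with only libraries lacking Y-linked transcripts. Leaving out 1 library gave 2931 to 3694. The fits with 2 or 3 colon libraries, or 2 small intestine ones, also have fewer samples. For inhibitor-treated mice the count was 5299, 1660 with a 2-fold minimum and 4671 to 5554 with 1 library left out, and 51% of its calls were higher, against 28.8% with no scaling and 41.7% with upper-quartile scaling. Between batches 4 and 1 of the colon, 0 genes were called, 178 with DESeq2, 4 with limma-voom, 1 with no filter and 0 to 14 with 1 library left out (14 without replicate 7, 3 without replicate 6). Of 134 named genes tested, 62 kept direction and side of the threshold in every alternative. The sign reversed for 4 genes, none of them called in the fits concerned. The log2 fold change of Tnf was 0.25 with the replicate block, against -1.18. Mapkapk2 was at -0.10 with no scaling and -0.28 with a batch term, where Ddx3y was at -1.49, against 0.09 and 1.47. Muc2 was at -0.02 with no scaling, -0.07 with the block, -0.10 to 0.36 with 1 library left out (below 0 without small intestine replicate 2 or 3), and -0.17 without the libraries holding other tissues, against 0.16. The cause was not tested.

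Replicate numbers name samples and do not pair them by the labels. Deviations of same-numbered vehicle libraries correlated at 0.0319, 0.0891 and 0.407 for numbers 1, 2 and 4. A replicate block over those 3 numbers called 2039 genes, 1898 of them among the 3539, and 4825 genes in the inhibitor-treated libraries. Under the block the adjusted p of Ang4 was 0.0926.

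The shallowest library held 9633104 counts, and 14 of 23 listed cytokine genes could not be compared at this depth. Region, genotype, T cell transfer, batch and sex make-up differ together, and the cause of the lower counts with a batch term or without Y-linked libraries was not tested.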

Other observations

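A library outside the comparison carried most of the small intestinal pattern, while B lineage genes and a part of the T cell, intraepithelial lymphocyte and adipocyte genes lay nearer the colon. Inflamed vehicle transfer replicate 3 (TCT_I_V, batch 4) came from a Rag1 null mouse given 400000 naive T cells, and its model otherwise gave colon-like libraries. It was chosen after its values were seen, it is a single library with no replicate, and its values are a description. Each of the 1181 genes at least 4-fold different was assigned to the nearer of the group means of log2 CPM plus 1. In this library 962 genes (81.5%) were nearer the small intestine, against 11.9 to 27.5% in the other 5 inflamed vehicle transfer libraries. The share was 90.8 to 99.2% in the 5 small intestine libraries and 0.677 to 6.94% in the 5 colon libraries, which set the means.

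Sis was 6071 CPM and Defa24 was 1772 CPM in that library, and alpha-defensin genes took 1.01% of its counts. All 15 brush border genes, all 19 Hox genes and all 18 Paneth cell genes among the 1181 were nearer the small intestine, as were 19 of 20 alpha-defensins. Igkc was 0.214 CPM and immunoglobulin genes took 0.000399% of counts. All 100 immunoglobulin genes were nearer the colon, 90 of them variable segments, 8 constant genes and 2 joining segments. Nearly all of these segments passed the count filter only through the small intestine, so the family total is the value to read. All 6 B cell genes, all 11 plasma cell genes and all 3 MHC class II genes among the 1181 were also nearer the colon. So were 7 of 10 T cell genes, 5 of 11 intraepithelial and cytotoxic lymphocyte genes and 4 of 7 adipocyte genes. Those 3 class II genes were H2-Ob, H2-Eb2 and H2-Oa. The whole class II list summed to 5795 CPM in this library, against 3808 to 7528 CPM in the small intestine and 578 to 5369 CPM in the colon. Tuft cell genes Siglecf and Sucnr1 were nearer the colon too.

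Squamous epithelial genes summed to 326 and 280 CPM in inhibitor-treated colon replicates 5 and 6, beside 483 CPM in vehicle colon replicate 7, and to at most 5.75 CPM in the other non-inflamed libraries.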
